A study of Mus musculus with 8 samples.

Results

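Ribosomal protein paralog pairs are 4 pairs of mouse genes, each made of a ribosomal protein gene used by nearly all cells and a like copy of it: Rpl10 and Rpl10l, Rpl39 and Rpl39l, Rpl22 and Rpl22l1, and Rps27 and Rps27l. The 8 genes were chosen by their symbols, and all 8 were found among the 19906 genes of the deposited table. Bulk RNA-seq had been performed on whole testis at 2 months of age, 1 library per animal, for 4 Tmem232-/- mice (libraries KO1 to KO4) and 4 Tmem232+/+ mice (libraries WT1 to WT4). The Tmem232-/- mice are homozygous for a deletion in Tmem232, made with CRISPR-Cas9 in fertilized C57BL/6 oocytes, and the deletion acts in every cell of the mouse. The other group is wild type at this gene. The study asked what TMEM232 does and whether its gene may have a part in asthenoteratozoospermia, in which sperm are malformed and move poorly.

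Ribosomal proteins form the small and the large subunit of the ribosome together with ribosomal RNA. During meiosis in the male, genes on the X chromosome are silenced, and several housekeeping genes of the X have autosomal copies that spermatocytes and spermatids use in their place. Rpl10 and Rpl39 are X-linked, and Rpl10l and Rpl39l are their autosomal copies, both needed for normal male fertility. Rpl22, Rpl22l1, Rps27 and Rps27l all lie on autosomes. The RPL22 protein is known to lower the level of Rpl22l1 RNA, and Rps27l is known as a gene that responds to p53.

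The paralogs are close enough in sequence for reads of a pair to resemble each other. Rpl10l (Entrez ID 238217) and Rpl10 (Entrez ID 110954) have coding sequences of 645 bases each, with 98 differences and 84.8% identity. Of these differences 89 fall on the last base of a codon. Rpl10l is a single exon, as a copy made from a spliced messenger RNA would be, whereas Rpl10-201 has 7 exons. The first 150 coding bases of both are shown because this is the pair with the highest testis paralog level. They are given 5′ to 3′ from GENCODE vM21 on GRCm38, with the 25 bases that differ between the genes in capitals, and lie at chr12:66284208-66284357 on the minus strand for Rpl10l and at chrX:74271002-74271867 on the plus strand, introns included, for Rpl10.
Rpl10l: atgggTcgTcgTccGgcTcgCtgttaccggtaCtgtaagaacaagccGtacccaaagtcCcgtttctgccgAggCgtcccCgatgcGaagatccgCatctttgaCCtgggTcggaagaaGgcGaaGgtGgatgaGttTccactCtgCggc
Rpl10: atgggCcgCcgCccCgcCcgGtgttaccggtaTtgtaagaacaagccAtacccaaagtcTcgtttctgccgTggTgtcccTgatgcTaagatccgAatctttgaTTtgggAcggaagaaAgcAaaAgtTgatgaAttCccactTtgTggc

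Rpl39l (Entrez ID 68172) and Rpl39 (Entrez ID 67248) encode one of the smallest ribosomal proteins. Their coding sequences have 156 bases each and differ at 23, of which 16 are the last base of a codon. Rpl39l has its whole coding sequence in 1 of 3 exons, whereas that of Rpl39 is spread over 3. Both are shown whole, from the same annotation, with the differing bases in capitals. The coding span is chr16:10174310-10174465 on the plus strand for Rpl39l and chrX:37082701-37085127 on the minus strand, introns included, for Rpl39.
Rpl39l: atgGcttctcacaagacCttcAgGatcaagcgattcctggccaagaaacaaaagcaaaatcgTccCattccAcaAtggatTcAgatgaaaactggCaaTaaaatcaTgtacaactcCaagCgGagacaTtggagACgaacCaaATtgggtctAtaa
Rpl39: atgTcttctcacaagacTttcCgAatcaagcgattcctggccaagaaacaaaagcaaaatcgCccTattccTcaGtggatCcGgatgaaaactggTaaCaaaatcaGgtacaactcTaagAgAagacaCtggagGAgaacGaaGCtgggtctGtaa

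Rps27l (Entrez ID 67941) and Rps27 (Entrez ID 57294) differ at 61 of 255 coding bases, 53 of them the last base of a codon. They are shown because this paralog alone was below its parent in the deposited levels per length. By counts Rpl22l1 was also below Rpl22. The coding span is chr9:66946175-66949357 on the plus strand for Rps27l and chr3:90212725-90213615 on the minus strand for Rps27, introns included, and capitals mark the differing bases.
Rps27l: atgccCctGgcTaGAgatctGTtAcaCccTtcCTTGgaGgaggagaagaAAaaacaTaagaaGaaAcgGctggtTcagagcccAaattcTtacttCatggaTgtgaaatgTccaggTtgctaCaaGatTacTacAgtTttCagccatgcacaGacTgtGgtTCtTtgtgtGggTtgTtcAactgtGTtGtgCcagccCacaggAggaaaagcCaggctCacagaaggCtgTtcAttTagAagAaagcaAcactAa
Rps27: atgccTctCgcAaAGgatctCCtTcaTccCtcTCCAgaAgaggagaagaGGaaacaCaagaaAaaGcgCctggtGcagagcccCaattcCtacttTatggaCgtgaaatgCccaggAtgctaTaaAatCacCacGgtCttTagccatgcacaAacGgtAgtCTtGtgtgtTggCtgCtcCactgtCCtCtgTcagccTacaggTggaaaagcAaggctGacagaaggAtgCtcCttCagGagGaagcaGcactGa

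Rpl22l1 (Entrez ID 68028, chromosome 3) and Rpl22 (Entrez ID 19934, chromosome 4) are the least alike pair, with 67.5% identity over coding sequences of 369 and 387 bases. The longest run of bases shared without a difference by the 2 transcripts of a pair, anywhere along them, was 23 bases for Rpl10l and Rpl10, 38 for Rpl39l and Rpl39, 26 for Rpl22l1 and Rpl22, and 11 for Rps27l and Rps27. The shared run of Rpl22l1 and Rpl22 is ttctccaaaaggtatttgaaatatct. GENCODE also names 6 pseudogenes of Rpl10, and 1 each of Rpl39, Rpl22 and Rps27, none of which is in the deposited table, so the counts of these 4 parents are uncertain where such copies share their reads. The deposited count was whole in every library for 6 of the 8 genes. It was not whole in 1 library for Rpl10 and in 2 for Rps27.

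The libraries held between 15428421 and 16350871 counts. Levels are given as counts per 1000000 (CPM) after TMM normalization when 1 gene is compared between libraries, and as FPKM, a level per length, when 2 genes are compared. Differences were tested with edgeR's quasi-likelihood test over 15787 genes, all 8 paralog pair genes among them, after its filter for low counts, with Benjamini-Hochberg adjustment over all of them. A gene was called at an adjusted p under 0.05. Tmem232 itself was higher in the KO libraries (log2 fold change 0.27, standard error 0.0721, edgeR adjusted p = 0.0335, range 0.0027 to 0.114 over the alternatives with edgeR, DESeq2 and limma). The deletion takes out part of this gene while the deposited count covers the whole of it, so this count is no test of the labels, and KO and WT stand below for what a library is labelled. All 8 markers of round spermatids and all 10 markers of elongating spermatids were called higher in the KO libraries, with list medians of 1.12 and 2.28. By contrast, 3 of 9 spermatogonia markers and 2 of 5 peritubular myoid markers were called lower, with list medians of -0.25 and -0.35. Of all genes tested, 10.3% were called higher and 1.46% lower. Of 9 spermatocyte, 7 Sertoli cell and 8 Leydig cell markers edgeR called none, with 3, 2 and 5 at an unadjusted p under 0.05, where 25.1% of all genes tested were, and medians of -0.10, -0.16 and 0.41. DESeq2 called 2 and limma-voom 1 of the Leydig cell markers, and neither called a marker of the other 2 lists. The part of these cell types in the levels of the ribosomal protein genes was not tested.

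Libraries within a label differed from each other across the whole ribosome. KO4 was the highest of its label for 64 of the 75 other core genes and for all 4 parents, but for only 1 of the 4 paralogs, Rpl39l. The summed CPM of the 9 spermatocyte markers was 2485 in this library and 2741 to 3278 in the other 3 of its label, and that of the 7 Sertoli cell markers was 1805 against 1413 to 1512. The 8 Leydig cell markers summed to 711 CPM in it and to 481 to 594 in the other 3. Every marker of these 3 lists, which define testis tissue, was detected. WT2 was the lowest of its label for 61 of the 75 genes, for 3 of the 4 parents and for all 4 paralogs. WT3 was the highest of its label for 58 of the 75 genes and for all 8 paralog pair genes. In this library the 10 elongating spermatid markers summed to 598 CPM, against 293 to 428 in the other 3 of its label, and the 8 round spermatid markers to 348 against 224 to 296. The part of these differences in the levels of the ribosomal protein genes was not tested.

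None of the 8 genes was called between the genotypes with edgeR, against 11.8% of all genes tested (10.3% higher and 1.46% lower in the KO libraries). Of the 8, 2 had an unadjusted p under 0.05, Rpl10 and Rps27l, beside 25.1% of all genes tested, and DESeq2 and limma-voom called none of the 8. The log2 fold changes of all 8 were negative, from -0.26 for Rpl10 to -0.02 for Rpl39l, with a median of -0.07. However, 3 of 8 were negative without WT3, 5 without KO2, KO3 or WT1, and 6 without KO1. With DESeq2 or its size factors 7 were negative, and 6 without the filter on low counts. The median over all genes tested was -0.05, and 60.8% of them were negative. In whole testis, fewer cells of a type and less RNA per cell cannot be told apart.

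**Figure D1:**
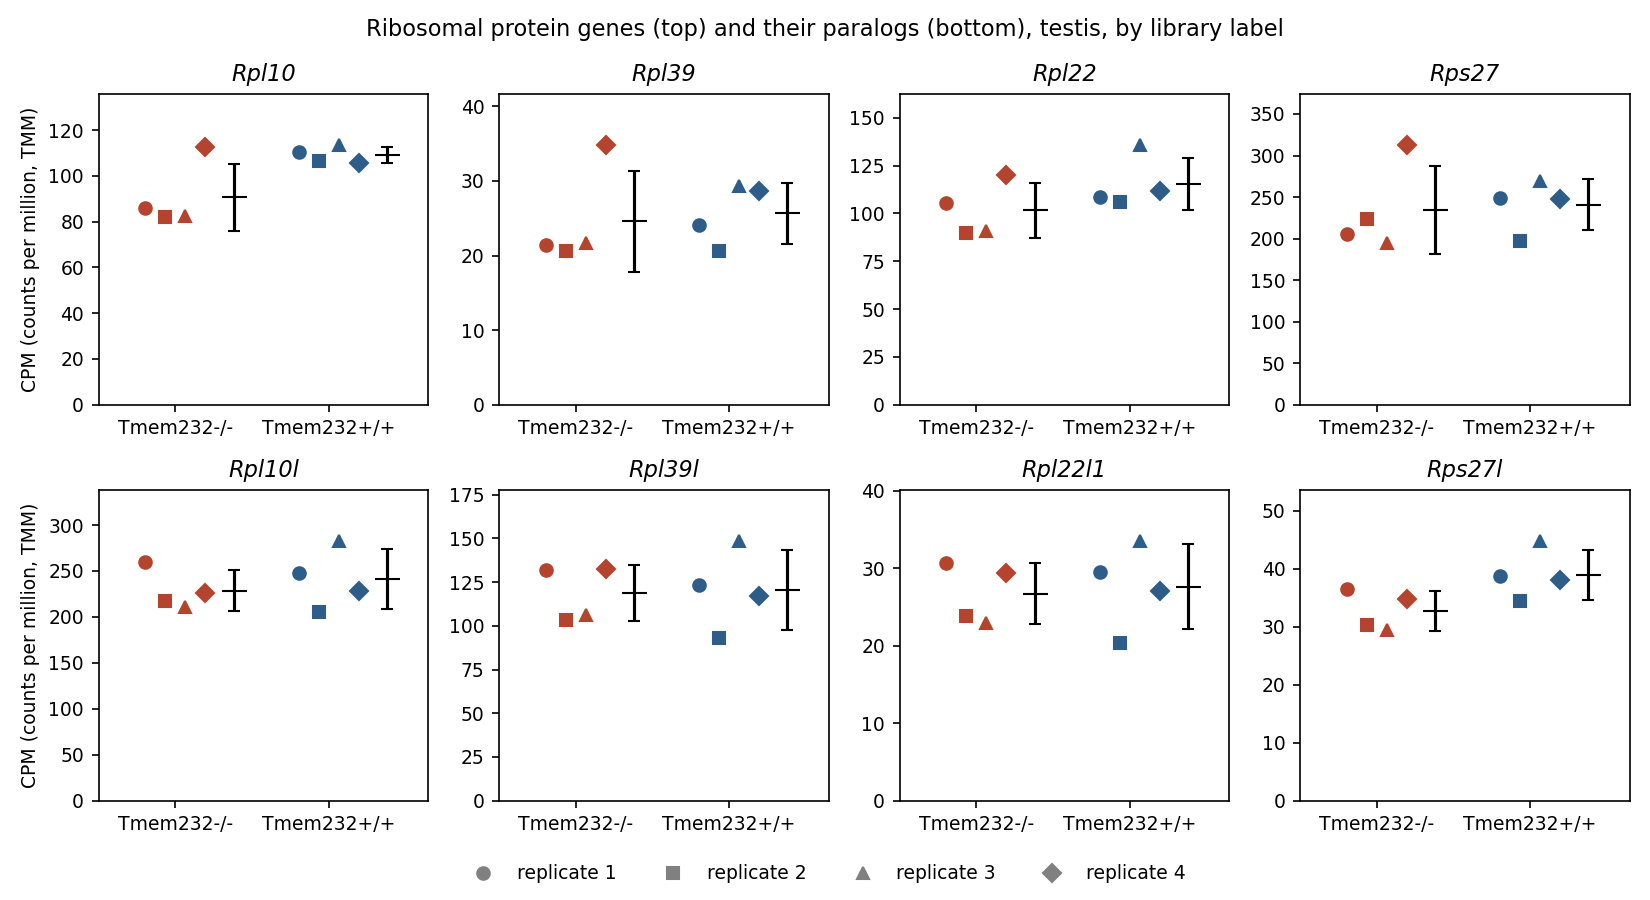
CPM of each gene (vertical axis, from 0) in the 4 KO libraries (red) and the 4 WT libraries (blue), parents in the top row and paralogs in the bottom row, with the marker shape giving the replicate number and the black bar the mean ± SD. KO4 is the highest of its label for all 4 parents, and WT3 is the highest of its label for all 8 genes.

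Rpl10, a protein of the large subunit that joins it late in its assembly, had 85.9, 82.0, 82.4 and 112 CPM in KO1 to KO4. In WT1 to WT4 it had 110.3, 107, 113 and 106 CPM. The first 3 KO libraries were below all 4 of the other label, and the fourth lay among them, so the groups overlapped. The log2 fold change was -0.26 (standard error 0.0994, 95% interval -0.48 to -0.05, edgeR adjusted p = 0.123). Leaving out KO4 turned this into a called decrease (log2 fold change -0.37, edgeR adjusted p = 0.0028), and over all alternatives with edgeR, DESeq2 and limma the adjusted p ranged from 0.0028 to 0.333.

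Rpl10l, the autosomal copy, had 260.2, 218, 211 and 226 CPM in KO1 to KO4. It had 248, 206, 282 and 229 CPM in WT1 to WT4. The lowest and the highest of the 8 values were both in WT libraries, and the other group lay inside this range. This gave a log2 fold change of -0.08 (standard error 0.103, 95% interval -0.30 to 0.15, edgeR adjusted p = 0.681). It was 0.0393 without WT3 and -0.15 without WT2.

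Rpl39, a small protein of the large subunit beside the tunnel through which new proteins leave, had 21.3, 20.6, 21.6 and 34.8 CPM in KO1 to KO4. Its values were 24.0, 20.6, 29.4 and 28.7 CPM in WT1 to WT4. KO4 had the highest value of all 8 libraries, and the other 3 of its label lay between 20.6 and 21.6 CPM. The fitted log2 fold change was -0.06 (standard error 0.176, 95% interval -0.45 to 0.33, edgeR adjusted p = 0.857), and without that library it was -0.27.

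Rpl39l, the copy used in spermatocytes and spermatids, had 132, 103, 106 and 133 CPM in KO1 to KO4. The WT libraries had 123, 92.8, 148 and 117 CPM. The range of the KO libraries lay wholly inside that of the other label. Between the labels the log2 fold change was -0.02 (standard error 0.136, 95% interval -0.32 to 0.28, edgeR adjusted p = 0.94), the closest to 0 of the 8 genes. It was 0.13 without WT3 and -0.13 without WT2.

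Rpl22, an RNA-binding protein of the large subunit that cells can live without, had 105, 89.9, 90.6 and 120.2 CPM in KO1 to KO4. It had 109, 106, 136 and 112 CPM in WT1 to WT4. The first 3 KO libraries were below all of the other label, as for Rpl10, and the fourth was above 3 of them. The log2 fold change was -0.19 (standard error 0.11, 95% interval -0.43 to 0.06, edgeR adjusted p = 0.324), and leaving out WT3 brought it to -0.07.

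Rpl22l1, its paralog, had 30.7, 23.8, 22.9 and 29.4 CPM in KO1 to KO4. In WT1 to WT4 it had 29.5, 20.4, 33.5 and 27.1 CPM. The groups overlapped, with the lowest and the highest value again in WT libraries. This gave a log2 fold change of -0.05 (standard error 0.149, 95% interval -0.38 to 0.28, edgeR adjusted p = 0.864). It was 0.0877 without WT3 and -0.17 without WT2.

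Rps27, a zinc finger protein of the small subunit, had 206, 224, 195 and 312 CPM in KO1 to KO4. It had 249, 197, 269 and 248 CPM in WT1 to WT4. KO4 was the highest of all 8 libraries and KO3 the lowest. The fitted log2 fold change was -0.04 (standard error 0.145, 95% interval -0.36 to 0.28, edgeR adjusted p = 0.885), and without KO4 it was -0.20.

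Rps27l, its paralog, had 36.5, 30.3, 29.5 and 34.8 CPM in KO1 to KO4. It had 38.7, 34.4, 44.7 and 38.1 CPM in WT1 to WT4. The WT libraries held the 3 highest values, and only WT2 fell inside the range of the other label. Between the labels the log2 fold change was -0.25 (standard error 0.1, 95% interval -0.47 to -0.03, unadjusted p = 0.029 and adjusted p = 0.146 from edgeR), and -0.15 without WT3. Over the alternatives with edgeR, DESeq2 and limma the adjusted p lay between 0.0656 and 0.364.

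For each of the 8 genes the CPM of the genotypes overlapped, whereas it did not overlap for 18.7% of all genes tested. The smallest two-sided p of the exact permutation test over the 70 arrangements of the libraries is 0.029, and the smallest among the 8 genes was 0.0857, for Rps27l.

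**Figure D2:**
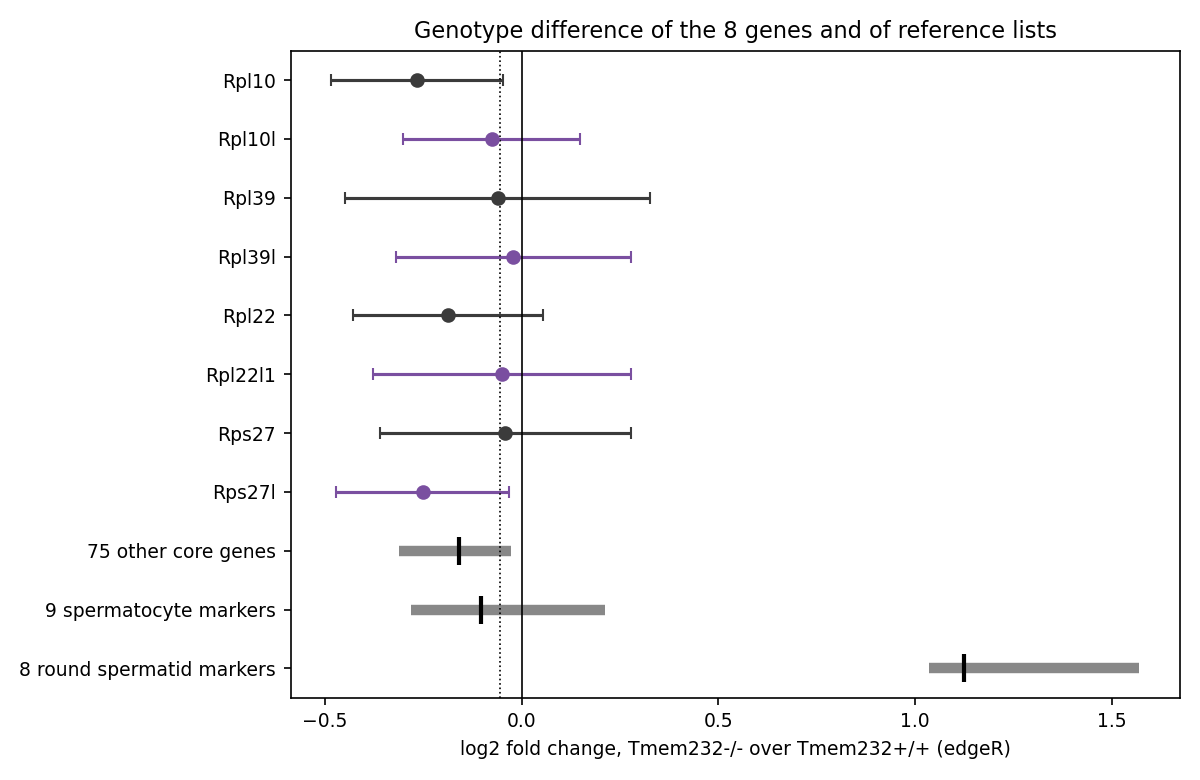
Points give the edgeR log2 fold change of each gene (horizontal axis, KO over WT libraries) with its 95% interval, parents in dark grey and paralogs in purple. Grey bars give the range and black ticks the median of the 75 other core ribosomal protein genes, 9 spermatocyte markers and 8 round spermatid markers, the solid line marks 0 and the dotted line the median of all genes, -0.05. The 8 genes and the other core genes lie between -0.31 and -0.02, and the round spermatid markers between 1.04 and 1.57.

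The median log2 fold change of the 8 genes was -0.07 and that of the rest of the ribosome -0.16. Without KO4 both medians were -0.23, without WT2 they were -0.16 and -0.22, and without WT3 they were 0.04 and -0.07. The 75 other core ribosomal protein genes all had negative log2 fold changes in a range from -0.31 to -0.03. With 1 library left out 62 (without WT3) to 75 of them were negative, with 69 without WT1, and 71 were without the filter on low counts. The lowest were Rps21, Rps28 and Rpl36a at -0.31, -0.29 and -0.28, and the highest were Rps14, Rpl26 and Rpl24 at -0.03 each. In this fit 1 of the 75 was called, lower in the KO libraries, against the 1.46% of all genes called in this direction. It was Rps3, a small subunit protein named here after its value was seen, with a log2 fold change of -0.27 (standard error 0.0761, edgeR adjusted p = 0.0383, range 0.0175 to 0.233 over the alternatives with edgeR, DESeq2 and limma). Rps3 was called in only 7 of the 16 alternatives, and with 1 library left out its log2 fold change ran from -0.32 to -0.18. The count of called genes was 0 to 3 with 1 library left out and 0 to 2 in the other alternatives.

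Of the 8 genes, Rpl10, Rps27l and Rpl22 had log2 fold changes of -0.26, -0.25 and -0.19, and the other 5 lay between -0.08 and -0.02. Whether the 8 genes differ from the other core genes was not tested. The summed CPM of the 75 genes was 15772, 14185, 13906 and 17232 in KO1 to KO4 and 17429.8, 15104, 18996 and 16247 in WT1 to WT4. The 2 labels overlapped in this sum.

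Rpl10l and Rpl39l were above their parents and Rps27l was far below, both per length and by counts, whereas the order of Rpl22l1 and Rpl22 turned between these scales. Rpl10l had 297, 254, 245 and 267 FPKM in KO1 to KO4, against 134, 131, 131 and 181 for Rpl10. In WT1 to WT4, Rpl10l had 286, 250.0, 339 and 273 FPKM, against 173, 178, 186 and 173 for Rpl10. Rpl10l exceeded Rpl10 in 8 of 8 libraries, and its lowest level was above the highest of Rpl10.

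Rpl39l had 209.6, 169, 172 and 216 FPKM in KO1 to KO4, against 79.1, 79.4, 82.3 and 129.8 for Rpl39. In WT1 to WT4, Rpl39l had 197, 157, 247 and 194 FPKM, against 89.2, 82.4, 114 and 112 for Rpl39. The autosomal copy was again above the X-linked gene in every library, without overlap between the genes. The deposited values rest on a length of about 261 bases for Rpl39, whereas Rpl39-201 of GENCODE has 612 bases, so the size of this gap depends on the length used. By counts Rpl39l was 3.82 to 6.19 times as high as Rpl39.

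Rpl22l1 had between 68.1 and 108 FPKM and Rpl22 between 44.3 and 69.5 FPKM over the 8 libraries. Per length the paralog was higher in each library, but by counts it was lower, with 0.192 to 0.291 counts of Rpl22l1 per count of Rpl22. The deposited FPKM divided the counts of Rpl22 by a length of about 2002 bases and those of Rpl22l1 by about 314, as the ratio of count to FPKM shows. The transcript Rpl22-201 of GENCODE has 474 bases, so the order of this pair depends on which transcript of Rpl22 is used.

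Rps27l had 83.7 to 129.6 FPKM, and Rps27 was the highest of the 8 per length with 1103 to 1699.9 FPKM. In CPM, which does not divide by length, Rpl10l and Rps27 had means of 241.1 and 241.0 in the WT libraries. In the KO libraries these means were 228.7 and 234.2 CPM. Without Rpl22 and Rpl39, whose levels per length depend on the transcript, the order of mean FPKM over the WT libraries was Rps27, Rpl10l, Rpl39l, Rpl10, Rps27l and Rpl22l1. There the ranges of Rpl39l and Rpl10 overlapped, as did those of Rps27l and Rpl22l1. The levels were also computed with 1 GENCODE transcript per gene, an alternative chosen after seeing the data. Each transcript length was shortened by as many bases as the deposited length of Rpl10l was, 849 against 1023. The level of Rpl10l is therefore unchanged by construction. This alternative kept the above order of the 6 genes. Rpl39 moved from a WT mean of 99.3 FPKM, above Rpl22l1, to 59.2 FPKM, below the 73.7 FPKM of Rpl22l1. Rpl22 moved from 58.5 FPKM, the lowest of the 8, to 389 FPKM, below Rps27 alone.

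As a share of the FPKM of the pair, Rpl10l made up 64.9% ± 3.87 (SD, n = 4) in the KO libraries and 61.6% ± 2.53 (SD, n = 4) in WT1 to WT4. Rpl39l made up 67.7% ± 4.13 (SD, n = 4) and 66.6% ± 2.52 (SD, n = 4) of its pair with the deposited lengths, and 83.0% ± 2.82 (SD, n = 4) and 82.3% ± 1.56 (SD, n = 4) of the counts of its pair. For Rpl22l1 the shares were 62.6% ± 2.17 (SD, n = 4) and 60.1% ± 3.30 (SD, n = 4) with the deposited lengths, but 20.8% ± 1.27 (SD, n = 4) and 19.2% ± 2.20 (SD, n = 4) of the counts of its pair. Rps27l held 6.73% ± 1.16 (SD, n = 4) and 7.55% ± 0.378 (SD, n = 4) of its pair, so Rps27 supplied most of the RNA under both labels.

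**Figure D3:**
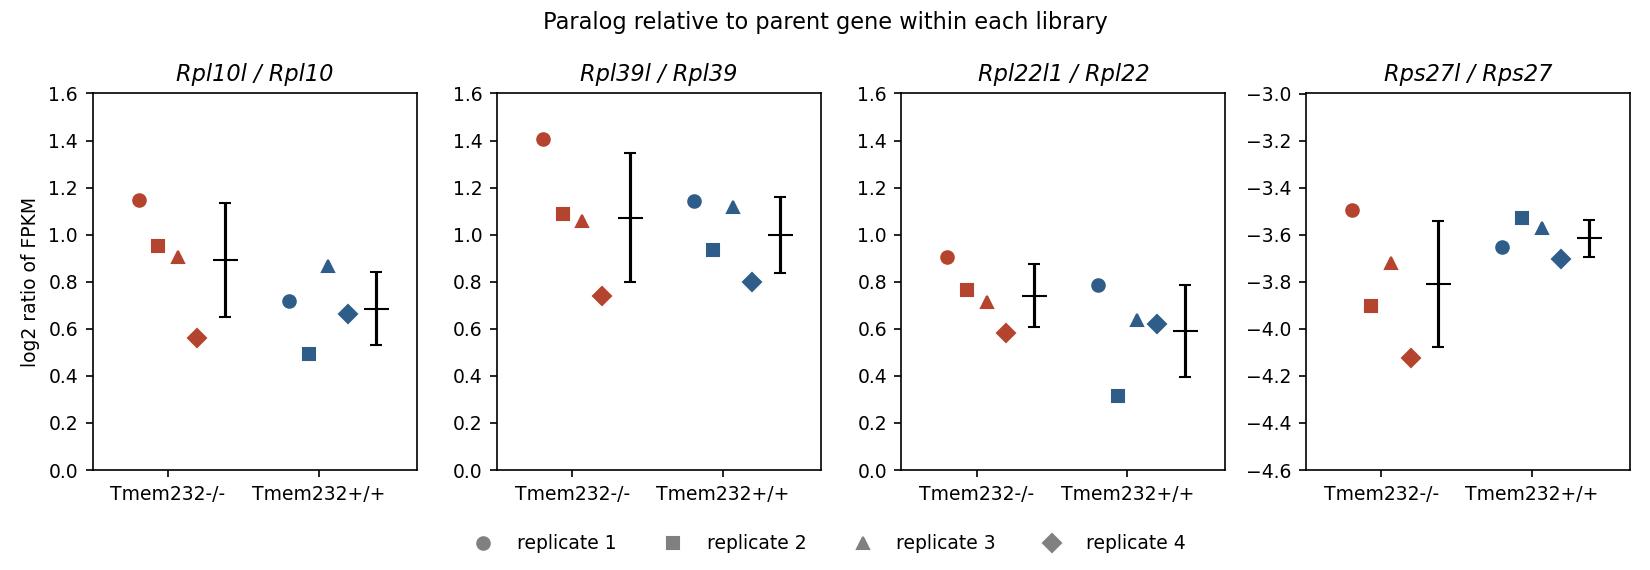
Log2 ratio of paralog to parent FPKM within each library (vertical axis) for KO libraries (red) and WT libraries (blue), with the marker shape giving the replicate number and the black bar the mean ± SD. Among the KO libraries, KO1 has the highest and KO4 the lowest ratio in all 4 pairs, and the labels overlap in each pair.

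The ratio of paralog to parent uses 2 genes of the same library, so the scaling between libraries cancels. For Rpl10l over Rpl10 the log2 ratio was 1.15, 0.95, 0.90 and 0.56 in KO1 to KO4 and 0.72, 0.49, 0.87 and 0.66 in WT1 to WT4. The first 3 KO libraries were above all 4 of the other label. The mean difference was 0.21 (exact permutation test, two-sided p = 0.229). With 1 library left out it lay between 0.12 (without KO1) and 0.32 (without KO4).

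For Rpl39l over Rpl39 the log2 ratio was 1.41, 1.09, 1.06 and 0.74 in KO1 to KO4. It was 1.14, 0.93, 1.12 and 0.80 in WT1 to WT4. The labels overlapped, with a mean difference of 0.07 (exact permutation test, two-sided p = 0.657). Leaving out 1 library gave differences from -0.04 (without KO1) to 0.19 (without KO4).

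For Rpl22l1 over Rpl22 the log2 ratio was 0.91, 0.76, 0.72 and 0.58 in KO1 to KO4. It was 0.79, 0.32, 0.64 and 0.62 in WT1 to WT4. WT2 was the lowest of all 8. The mean difference was 0.15 (exact permutation test, two-sided p = 0.286), and with each library left out in turn it ran from 0.06 (without WT2) to 0.22 (without WT1).

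For Rps27l over Rps27 the log2 ratio was -3.49, -3.90, -3.72 and -4.12 in KO1 to KO4. It was -3.65, -3.53, -3.57 and -3.70 in WT1 to WT4. The KO libraries spread more widely, with an SD of 0.27 against 0.08. The mean difference was -0.19 (exact permutation test, two-sided p = 0.257), and with 1 library left out it was between -0.30 (without KO1) and -0.09 (without KO4). None of the 4 differences passed 0.05 before any adjustment.

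Across the 8 libraries each paralog had a higher Pearson r with the other paralogs than with its own parent. The r of log2 CPM was 0.72 to 0.98 among the 4 paralogs, 0.89 to 0.98 among Rpl10l, Rpl39l and Rpl22l1 alone, and 0.31 to 0.70 between a paralog and its own parent. Among the 4 parents it was 0.68 to 0.93, with the highest value for Rpl39 and Rps27. Rps27l was most like Rpl22 among the other 7 genes, with r = 0.89. These values describe 8 libraries of 2 labels whose genes share depth and cell composition.

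**Figure D4:**
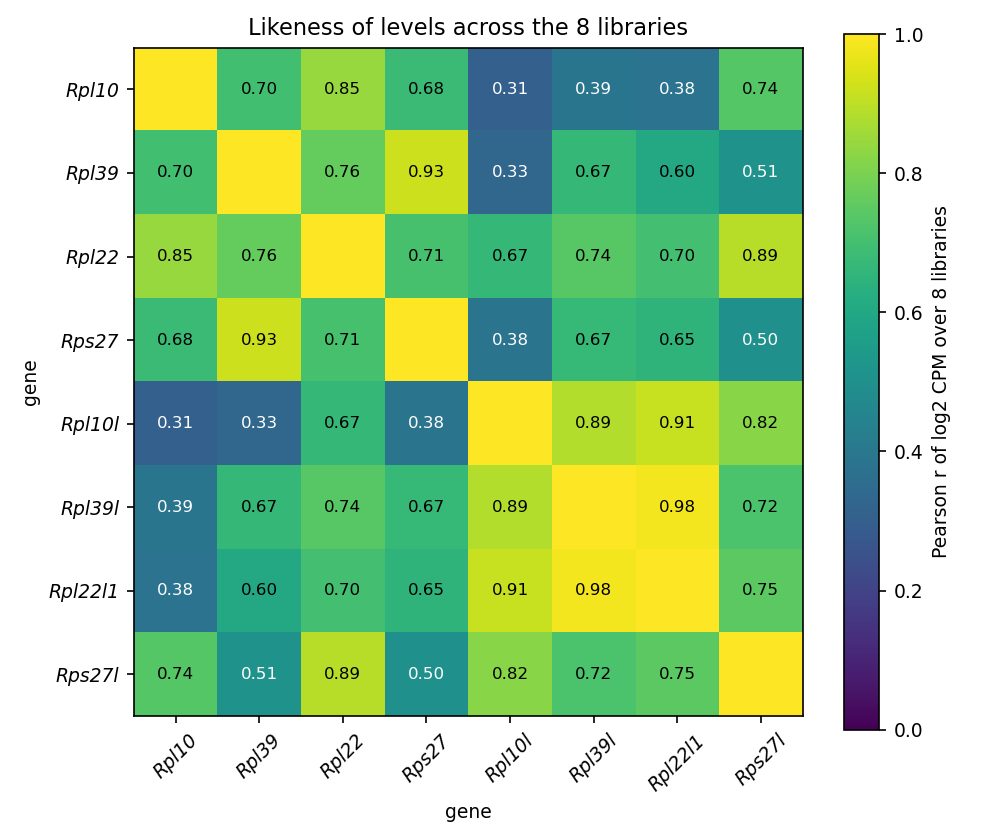
Pearson r of log2 CPM (colour and printed value) for each pair of the 8 genes over the 8 libraries, parents first and paralogs last on both axes. Rpl39l and Rpl22l1 reach 0.98, whereas Rpl10l and Rpl10 have 0.31.

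The genes whose levels were most like those of a paralog were sought among 15060 other genes with a mean of at least 1 CPM. For Rpl10l they were Snapc5, Hsbp1l1 and Serf1, each with r = 0.98. For Rpl39l they were Mpc2, a subunit of the mitochondrial pyruvate carrier, at r = 0.99, Ppp3r2, the testis form of the calcineurin regulatory subunit, at 0.98, and Rpl22l1 at 0.98. For Rpl22l1 they were Mpc2 at 0.99, Rpl39l at 0.98 and Ube2d2b, a ubiquitin-conjugating enzyme, at 0.98. For Rps27l they were Abhd14a, Coprs and Trim11, each at 0.99. None of these genes was called between the genotypes with edgeR (adjusted p from 0.16 to 0.96).

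Other paralogs of ribosomal protein genes were also measured. Rpl36al, an autosomal copy of the X-linked Rpl36a, had a log2 fold change of -0.0033 (95% interval -0.19 to 0.19, edgeR adjusted p = 0.986), against -0.28 for Rpl36a (adjusted p = 0.263). Rpl7l1 had 65.9, 65.4, 65.5 and 69.7 CPM in KO1 to KO4 and 70.04, 78.8, 75.1 and 72.9 CPM in WT1 to WT4. All KO libraries were below the others, but the difference was not called (log2 fold change -0.16, standard error 0.0619, edgeR adjusted p = 0.146). Rpl3l, known as a gene of heart and skeletal muscle, stayed between 0.379 and 1.01 CPM. The X-linked Rps4x had a log2 fold change of -0.15 (edgeR adjusted p = 0.554).

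Rpl10l and Rpl39l belong to the class of autosomal copies of X-linked genes that are used in male germ cells, and 7 other copies of this class were examined. Of these, 2 were called higher in the KO libraries, against the 10.3% of all genes called in this direction. They were Pgk2, the testis form of a glycolytic kinase (log2 fold change 0.51, standard error 0.0748, edgeR adjusted p = 0.000719), and G6pd2, a copy of glucose-6-phosphate dehydrogenase (log2 fold change 1.33, standard error 0.144, edgeR adjusted p = 9.35e-05). The other 5, Pdha2, Utp14b, Cetn1, Cstf2t and Rbmxl2, had log2 fold changes between -0.06 and 0.09 and were not called. Cstf2, the X-linked parent of Cstf2t, was called higher (log2 fold change 0.41, edgeR adjusted p = 0.0014). The log2 ratio of copy to parent, KO minus WT libraries, was -0.43 for Cstf2t, 0.50 for Pgk2 and 1.43 for G6pd2 (exact permutation test, two-sided p = 0.029 each). This p is unadjusted and is the smallest that the test can give. The difference was 0.15 for Pdha2, -0.07 for Utp14b, 0.24 for Cetn1 and 0.08 for Rbmxl2 (same test, p from 0.286 to 0.686). The intervals of Rpl10l and Rpl39l end at 0.15 and 0.28. Those of Pgk2 and G6pd2, set beside them because these 2 were called, begin at 0.34 and 1.01. The log2 fold changes of Rpl10l and Rpl39l were -0.08 and -0.02, against -0.06 to 0.09 for the 5 copies not called. A test of the differences between these genes was not run. Markers of round and elongating spermatids were also called higher in the KO libraries, 8 of 8 and 10 of 10. Their part in the levels of Pgk2 and G6pd2 was not tested.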

How the data were processed

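RNA of whole testes from 4 Tmem232-/- and 4 Tmem232+/+ mice was sequenced in read pairs, 1 library per mouse, and all 8 libraries were used and grouped by their labels. The authors dropped reads of low quality, aligned those left to GRCm38.p6 (HISAT, Bowtie2), obtained counts per gene (StringTie, featureCounts) and ran DESeq2. The deposited table gives estimated counts without normalization, of which 10.7% to 11.2% per library are not whole, and these were rounded here. The deposited table also holds an expression value whose unit its header does not name. These deposited values were read as FPKM because their ratio to the counts fits a scaling by length and library total. For Rpl10l that length was 849 bases, shorter than its single transcript of 1023. For Rpl22 it was about 2002 bases, longer than the 474 of Rpl22-201. The deposited averages and the columns of the authors' own comparison (fold changes and p-values) were not used, and 0 columns of samples were left without a sample.

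Differences were tested with edgeR 4.0.16 in R 4.3.3 (TMM, filterByExpr, quasi-likelihood test, Benjamini-Hochberg adjustment over all genes tested, threshold 0.05), with intervals of 95% from its standard errors and moderated degrees of freedom. CPM values are counts per 1000000 after TMM. Ratios of paralog to parent were compared with exact two-sided permutation tests over the 70 arrangements, in scipy 1.17.1. The script was tested on simulated data. The alternatives were DESeq2 1.42.0, scaling by its size factors, scaling by library size, no filter, at least 10 counts in every library, limma-voom and log2(FPKM + 1) with limma 3.58.1, the replicate number as a block, each library left out in turn and, for the ratios, counts in place of FPKM and 0.5 counts added to both genes. GENCODE transcript lengths in place of the deposited ones were added after seeing the data. Each was shortened by as many bases as the deposited length of Rpl10l falls short of its transcript. Coding sequences were read from GENCODE vM21 transcripts and aligned with Biopython 1.88. The members and the gene lists were chosen with earlier results of these data known. The text names the 8 members, other ribosomal paralogs, X-linked core genes, the 3 highest and 3 lowest of the other core genes, autosomal copies of X-linked genes and the 3 genes most like each paralog in log2 CPM with a prior count of 2. Total counts were 15428421 to 16350871 per library, and intervals cover the spread between these libraries only. Nothing in the labels beyond the mouse tells what separates the libraries technically.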

Additional observations from a re-analysis of the deposited data

Results flagged for a closer look

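Among the KO libraries, KO4 stood far from the other 3 libraries for the parents Rpl10 and Rpl39, both X-linked. It was also the highest of its label for the autosomal parents Rpl22 and Rps27 and for 64 of the 75 other core genes. Rpl10 was 112.4 CPM in it and 82.0 to 85.9 CPM in the others, a gap of 0.87 of the group's range. Rpl39 was 34.8 CPM in it and 20.6 to 21.6 CPM in the others, a gap of 0.93 of the range. Both exceed the 95% limit for a group of 4. There were 26 groups of values examined, of which chance alone would mark about 1.3. The same library had the lowest summed CPM of spermatocyte markers and the highest of Sertoli cell markers in its label, and their part in these levels was not tested.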

How the results depend on the processing

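None of the 8 genes was called in any of the 16 alternatives, except Rpl10 without KO4. The cause of the changes given here was not tested. Over the 8 fits that each lack 1 library, the log2 fold change ranged from -0.37 to -0.21 for Rpl10, -0.15 to 0.0393 for Rpl10l, -0.27 to 0.0406 for Rpl39, -0.13 to 0.13 for Rpl39l, -0.27 to -0.07 for Rpl22, -0.17 to 0.0877 for Rpl22l1, -0.20 to 0.048 for Rps27 and -0.31 to -0.15 for Rps27l. The sign of Rpl39l turned with DESeq2 (8.32e-04), with DESeq2 size factors (9.70e-04) and with no filter on low counts (0.0197), and that of Rps27 turned with no filter (0.0018). None of these values came near the threshold. Rpl10, Rpl22 and Rps27l kept their direction in all alternatives tried, and each of the other 5 turned in at least 1 of them. The replicate block changed no call among the 8 genes. The count of other core genes called was 1, against 2 with DESeq2, with FPKM and limma and with library size alone, 0 with DESeq2 size factors, with no filter and with the replicate block, and 0 to 3 with 1 library left out. No core gene was called higher in any of them. The ratios kept their direction, with p above 0.05, with counts, with added counts and with GENCODE lengths. Their replicate block by exact sign flips gave p from 0.25 to 0.5 but cannot go below 0.125 with 4 pairs, so it says nothing of stability. A ratio turned in sign only for Rpl39l over Rpl39 without KO1. The same replicate numbers correlated at -0.06, 0.07, -0.33 and -0.11, so the numbers were not taken to pair the mice. Standard errors of 0.0994 to 0.176 on the log2 scale limit what 4 mice a group can resolve.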
